A study of Rattus norvegicus with 9 samples.

Results

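Of the 16501 long noncoding RNA (lncRNA) loci and catalogue transcripts measured in cultured rat renal artery endothelial cells, 186 were loci assembled from the sequencing reads that held several transcripts. The rule that picked them used their identifiers alone, though it was set with earlier results of these data known. An assembled transcript carries a name such as MSTRG.7363.2, in which MSTRG.7363 is the locus and the last number the transcript, and every MSTRG locus with 2 or more transcripts in the lncRNA table was kept. The 186 loci held 499 of the 16814 transcripts in the table. The rest were 1133 assembled loci with 1 transcript, 14394 NONCODE transcripts, from a catalogue of noncoding RNAs, and 788 Ensembl transcripts.

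The cells line the artery that supplies the kidney, and their total RNA was sequenced in 9 strand-specific libraries. The labels give 3 libraries to each of 3 groups, named Normal, Model, and Calycosin and Tanshinone IIA treatment, called Treated here. Calycosin is an isoflavone from the root of Astragalus, and tanshinone IIA is a quinone from the root of red sage. The study's title names angiotensin II, the peptide hormone that constricts arteries, as the agent of the endothelial dysfunction. The labels give no agent for the Model group, no dose or time, and do not say whether Treated cells also received what the Model cells did. They do not state whether replicates were grown as independent cultures. The p-values therefore rest on the variation among the libraries at hand, which may be technical. In RNA from a whole culture, fewer cells that make a transcript and less of it per cell cannot be told apart.

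An lncRNA locus often gives rise to several transcripts, through alternative start sites, alternative splicing and alternative ends. The transcripts of a locus share much of their sequence, so a short read from a shared exon fits more than 1 of them, and a counting program must leave such a read out or divide it. Where reads are divided, the share of each transcript depends on the division and the sum over all transcripts of the locus does not. The totals used here sum the transcripts in the lncRNA table, so reads given to a transcript outside it would be missing from them. How the deposited counts were divided, and whether strand was used, is not given in the sources used here. Reads of an overlapping antisense gene therefore cannot be told apart either. The assembled transcripts come with no position, sequence or gene name, so the exons that distinguish them are not described here. The labelled cell type could not be checked against endothelial markers, since the identifiers of the gene table were not paired with symbols in the tables used here.

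Library totals ran from 710678 to 1583737 counts for lncRNAs and from 7983580 to 18256974 for genes. The smallest of both were Treated 2 and Treated 3. The 499 transcripts took 4.47% to 6.03% of the lncRNA counts of a library. Levels are given as CPM, the count scaled to a common size of the lncRNA library. A level of 1.94 to 4.19 CPM corresponded to 3 counts, depending on the library, which is the level that a count of 0 still allows. Intervals and floors of this kind, for a library or pooled over a group, cover counting error only and not the spread between libraries.

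Most of the loci were small in both senses. There were 134 loci with 2 transcripts, 33 with 3, 9 with 4, 2 with 5, 3 with 6, 2 with 7, and 1 each with 12, 15 and 27. In 60 loci (32.3%) the transcript numbers had gaps, and up to 54 numbers of a locus were not in the lncRNA table. Totals and shares of a locus cover its listed transcripts only. Transcript lengths, recovered from the ratio of count to FPKM (a fragment count scaled by transcript length and library size), ran from 202 to 17957 bases with a median of 1390. The mean total over the 9 libraries had a median of 115.7 counts per locus and ran from 4.56 to 17239. It reached 50 counts in 145 loci, 200 in 56 and 1000 in 4. The single locus MSTRG.124 held 27.9% of all counts of the 499 transcripts, and the 4 most abundant loci together held 49.3%.

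In most loci 1 transcript took most of the counts. The main transcript, defined as the one with the highest mean share of the locus count, held a median of 76.2% (quartiles 62.5% and 88.9%, range 13.5% to 98.9%). Its share was above 50% in 168 of 186 loci and above 90% in 32. The median was 80.4% in loci with 2 transcripts and 61.2% in the 52 loci with 3 or more. The main transcript was the longest of its locus in 146 loci (78.5%). Ranked per length, by FPKM, the main transcript was the same in 169 loci and another in 17.

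The transcript that led in a locus often differed from library to library. The same transcript led in all 9 libraries in 70 loci. In 96 loci 2 transcripts took the lead in different libraries, in 13 loci 3 did, in 4 loci 4, and 1 locus each had 5, 6 and 8 leaders. The leader by group means differed between Normal, Model and Treated in 40 loci. Among the 145 loci with a mean total of 50 or more counts, 63 had a single leader and 82 had several. In all 82 of these loci the leader differed between libraries of the same group. There were 0 loci in which the leader was constant inside each group and differed between groups. With a mean total of 200 or more counts, 27 loci had a single leader and 29 had several.

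Many transcripts of these loci were listed both at 0 counts and at 20 or more inside 1 group. Of the 444 transcripts that reached 20 counts in some library, 166 (37.4%) were at 0 in 1 library and at 20 or more in another library of the same group. The share was 1.20% for assembled loci with 1 transcript (11 of 919), 1.83% for NONCODE transcripts (112 of 6130) and 2.92% for Ensembl transcripts (7 of 240). For the totals of the loci studied here it was 1.10% (2 of 182). The 166 transcripts lay in 101 loci, and of the totals of these 101 loci 2 (1.98%) did the same. By group, such transcripts made up 21.5% in Normal (77 of 358), 22.2% in Model (82 of 369) and 24.0% in Treated (85 of 354). These shares are descriptions, since transcripts of 1 locus share their reads.

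**Figure D1:**
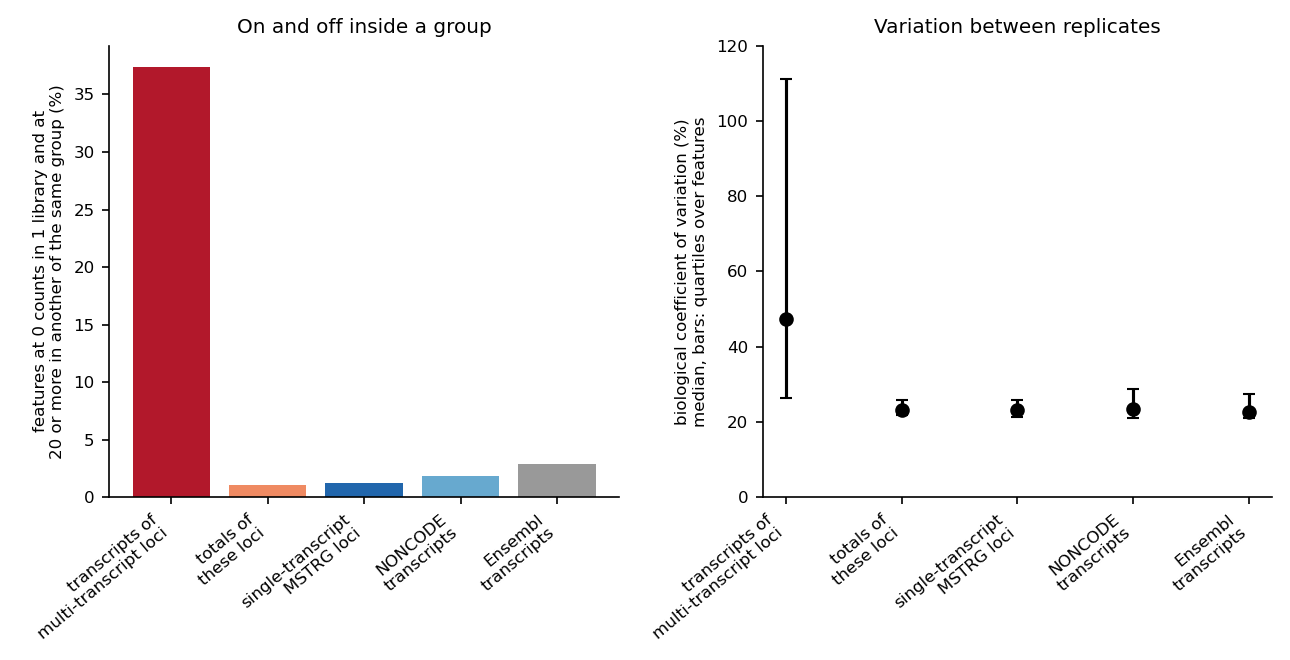
Left, the share of features (%) that were at 0 counts in 1 library and at 20 or more in another library of the same group, for 5 classes of feature. Right, the biological coefficient of variation (%) by class as estimated by edgeR, drawn toward a trend, with the median as a point and the quartiles as bars. Transcripts of loci with several transcripts stand at 37.4% and 47.4%, while the totals of the same loci stand at 1.10% and 23.2%, near the other classes.

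The spread between replicates showed the same contrast. The biological coefficient of variation is the spread between replicates beyond counting error, as estimated by edgeR. It includes any difference between libraries in how shared reads were divided. Its median was 47.4% over 370 of these transcripts, with quartiles of 26.3% and 111.0%. Over 183 locus totals it had a median of 23.2% with quartiles of 21.9% and 25.7%. Assembled loci with 1 transcript (23.2%), NONCODE transcripts (23.3%) and Ensembl transcripts (22.7%) lay at the level of the totals. Each estimate is drawn by edgeR toward a trend over all features of its fit, so these medians are not the raw spread. In the 145 loci with 50 or more counts, the coefficient of variation (CV) of CPM within groups had a median of 15.9% for the total and 30.4% for the main transcript. Counting error alone would give medians of 8.48% and 9.63%. The main transcript varied more than its own locus total in 120 of 144 loci, and over 2 times as much in 61. In 1 further locus, MSTRG.7417, the main transcript had no CV, because it was at 0 in all 3 Normal libraries. The share of the main transcript had a median standard deviation of 17.0 percentage points between libraries of a group, was below 5 points in 26 loci and above 20 in 57.

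**Figure D2:**
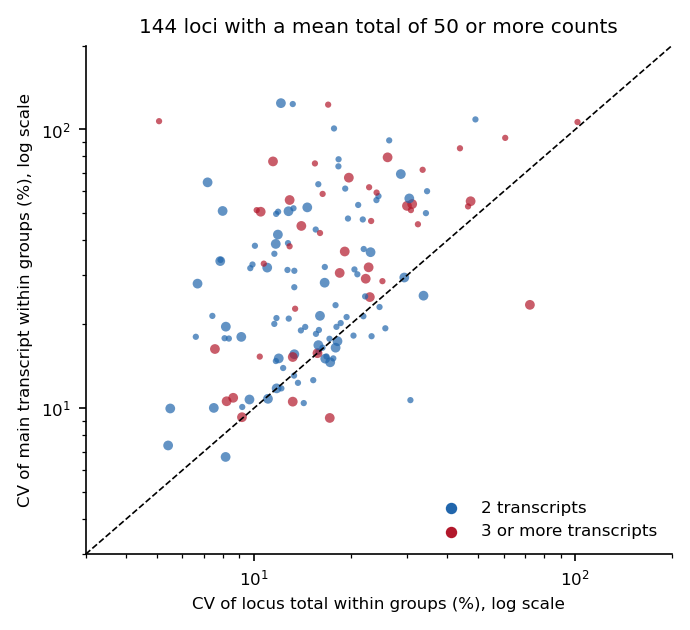
Coefficient of variation (%) within groups of the main transcript (vertical, log scale) against that of the locus total (horizontal, log scale), 1 point for each of 144 loci with a mean total of 50 or more counts, with the line of equality; larger points mark a mean total of 200 or more. Of the 144 loci, 120 lie above the line.

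Differences in share between libraries of different groups lay near those between libraries of 1 group. As a distance, the percentage of the locus count that would have to move between transcripts to turn one profile of shares into another was used. Averaged over pairs of libraries of the same group, its median over the 145 loci was 17.8%. Averaged over pairs of libraries from different groups it was 15.5% for Model and Normal, 17.3% for Treated and Model, and 18.2% for Treated and Normal. It exceeded the distance within groups in 69, 75 and 78 of the 145 loci, respectively.

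In loci with 2 transcripts, one transcript was high where the other was low. Of the 100 such loci with 50 or more counts, the CPM of both transcripts correlated negatively over the 9 libraries in 80, with a median correlation of -0.645. This is a description over libraries that share their normalization, and the transcripts share the reads of the locus. In 22 of the 100 loci each transcript held 90% or more of the count in some library, and in 21 of these both states occurred inside 1 group. The transcripts of these 22 loci were close in length, with a median ratio of longer to shorter of 1.09 (a difference of 218 bases). In the other 78 loci it was 1.78 (1121 bases). Over the 100 loci, the ratio of lengths and the standard deviation of the share had a Spearman correlation of -0.58.

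MSTRG.20766 showed such a complete exchange. Its transcripts measure 1845 and 1824 bases. MSTRG.20766.1 had counts of 0, 0 and 69 in Normal, 61, 0 and 0 in Model, and 0, 46 and 43 in Treated. MSTRG.20766.2 had 55, 78 and 0, then 1, 102 and 85, then 100, 0 and 0. In every library 1 of them held all or nearly all of the reads, and both states occurred in each group. The total was nearly level, at 59.0 ± 11.6 CPM in Normal, 63.4 ± 5.89 in Model and 61.8 ± 4.56 in Treated (mean ± SD, n = 3 here and throughout).

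A further 4 loci were among those with the least reproducible shares, and each had 2 transcripts in the table. In MSTRG.18204, transcript 2 had 393 counts in Treated 1 and 0 in the other 8 libraries, while transcript 1 had 0 in Treated 1 and 152 to 314 in the others. In MSTRG.8488, transcript 1 held all reads in Model 3 (73) and Treated 1 (83) and was at 0 in 6 libraries. In MSTRG.10261, transcript 1 held all reads in Model 2 (140) and Model 3 (139), none in Model 1 and none in any Treated library. In MSTRG.23151, transcript 1 held all 67 reads in Normal 2 and none in Normal 1 and Normal 3. The total of MSTRG.23151 was itself uneven, with 6, 150 and 114 counts in Model.

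The opposite case, a share that hardly moved, also occurred at high totals. MSTRG.26058.11, of 7175 bases, held 80.2% ± 1.14 of its locus in Normal, 77.3% ± 1.82 in Model and 76.7% ± 2.38 in Treated. MSTRG.26099.6, of 5754 bases, held 90.4% ± 3.06, 89.6% ± 1.67 and 91.3% ± 0.903. MSTRG.10388.5, of 3972 bases, held 81.3% ± 2.10, 81.5% ± 3.26 and 79.0% ± 2.05. In each of these the next transcript was far shorter, at 2234, 1312 and 1096 bases. MSTRG.19026.1, of 8605 bases, took all reads in 7 libraries, and its partner appeared only in Model 2 (19 counts) and Treated 3 (13 counts). MSTRG.14206.11, of 6341 bases, held 74.7% ± 3.44, 74.9% ± 3.00 and 73.6% ± 0.854. The second transcript of MSTRG.14206 was less steady, with 193 to 338 counts in 7 libraries, 145 in Treated 3 and 5 in Treated 2. Treated 2 alone had 138 counts on another transcript, MSTRG.14206.1, which stood at 0 or 1 elsewhere.

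**Figure D3:**
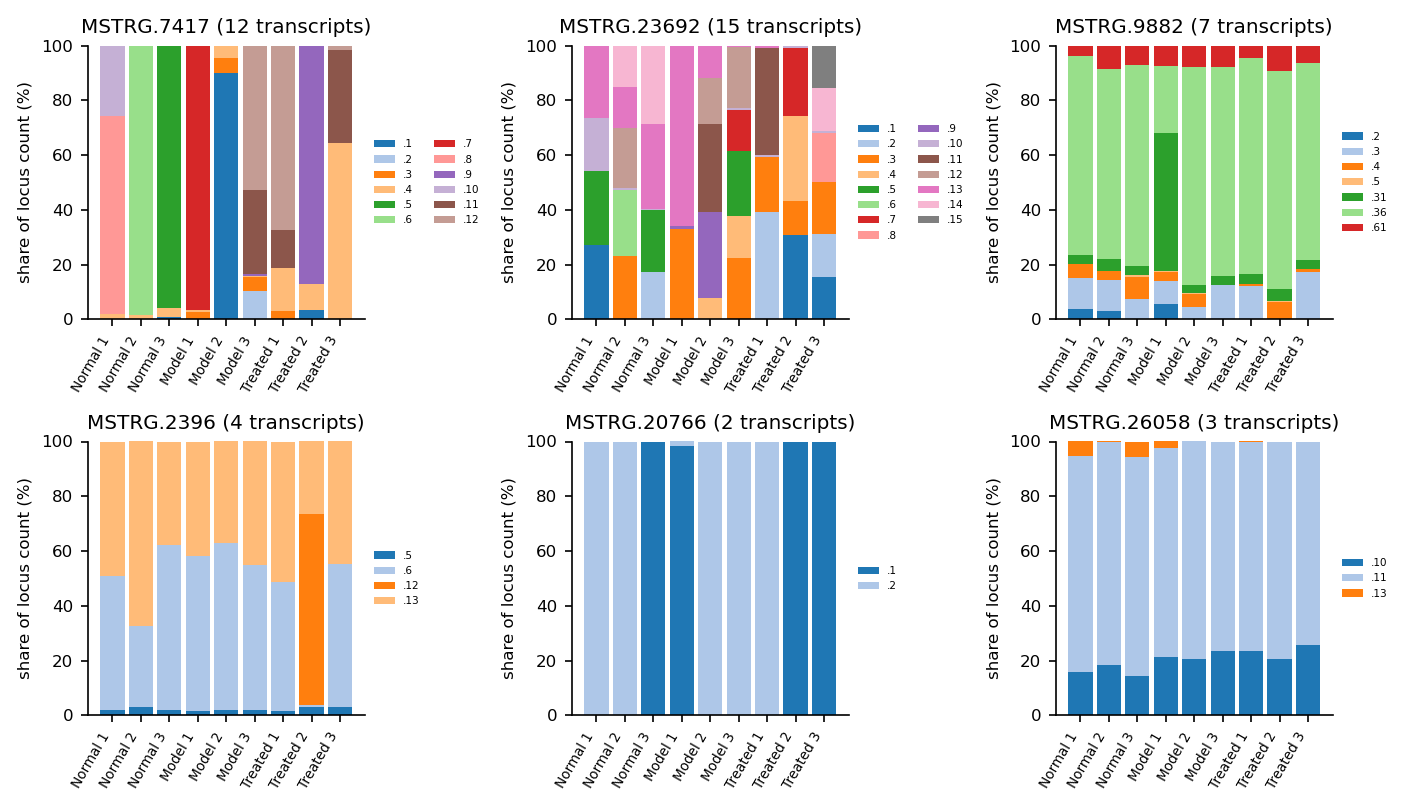
Share of the locus count (%, vertical) held by each transcript in each of the 9 libraries, as stacked bars for 6 loci; a colour stands for 1 transcript, named by its last number. MSTRG.7417 and MSTRG.23692 change composition from library to library, MSTRG.9882 and MSTRG.2396 change in 1 library, MSTRG.20766 exchanges both transcripts, and MSTRG.26058 keeps its shares.

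The loci with the most transcripts were of 2 kinds. MSTRG.7417, with 12 transcripts, had 8 different leaders in 9 libraries. By their last number these were transcripts 8, 6 and 5 in Normal, 7, 1 and 12 in Model, and 12, 9 and 4 in Treated. The total counts of 143, 126 and 98 in Normal, 116, 151 and 176 in Model, and 159, 31 and 62 in Treated were more even than the choice of transcript. Transcript 6 had 124 counts in Normal 2 and 0 in every other library, and transcript 7 had 112 in Model 1 and 0 in every other. MSTRG.23692, with 15 transcripts of 1013 to 1050 bases, had 6 leaders, and none of its transcripts was above 0 in all 9 libraries. Its total was 138.5 ± 5.30 CPM in Normal, 122.6 ± 33.0 in Model and 149.1 ± 17.1 in Treated. The transcript with the highest mean share, MSTRG.23692.13, had 43, 23 and 50 counts in Normal, 70, 28 and 1 in Model, and 2, 0 and 0 in Treated.

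MSTRG.2792, with 27 transcripts, was the opposite. It was the third most abundant of the 186 loci per length, at a mean of 220 FPKM. Its total was 3424 ± 203 CPM in Normal, 3671 ± 552 in Model and 3034 ± 254 in Treated. Its reads were spread so evenly that they equalled 10.4 equally abundant transcripts, and 18 of the 27 were above 0 in every library. MSTRG.2792.39 led in 8 libraries and MSTRG.2792.38 in Treated 2. MSTRG.2792.39 had 835, 793 and 766 counts in Normal, 835, 1055 and 1017 in Model, and 1119, 49 and 255 in Treated. Its share was 20.4% ± 1.31, 20.7% ± 2.95 and 11.9% ± 9.69, low in Treated 2 and Treated 3, the libraries with the lowest depth, and the part of depth in this was not tested. MSTRG.2792.38 kept 14.6% ± 2.54, 13.7% ± 0.965 and 15.6% ± 5.97, and MSTRG.2792.61 kept 10.2% ± 1.81, 10.9% ± 0.380 and 9.47% ± 1.89.

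**Figure D4:**
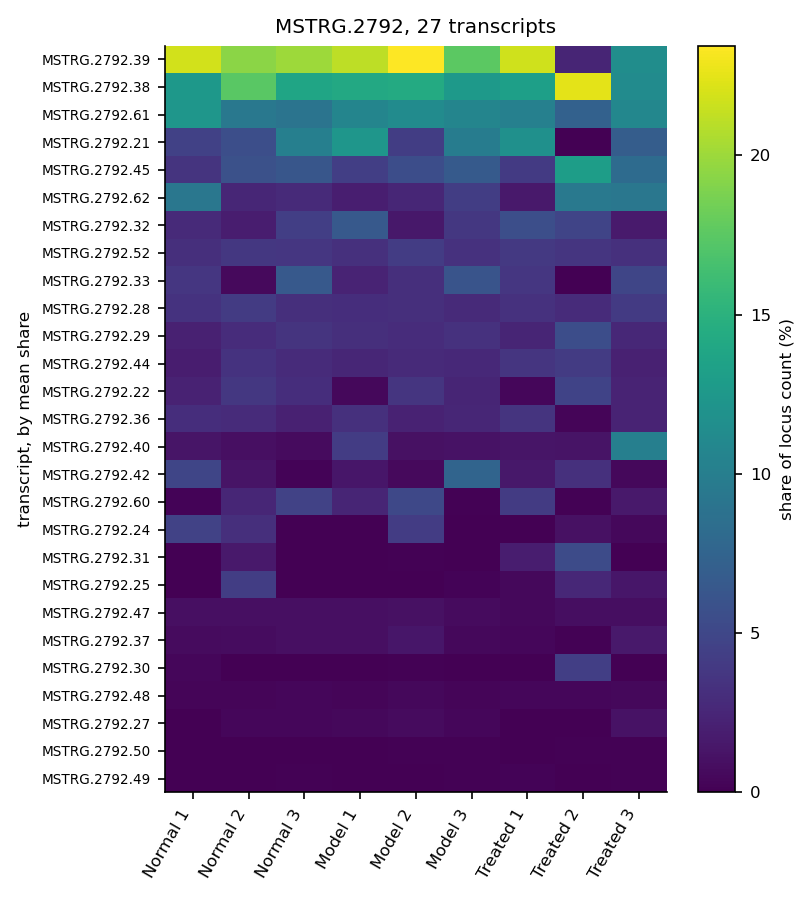
Share of the locus count (%, colour scale) of each of the 27 transcripts of MSTRG.2792 (vertical, ordered by mean share) in each of the 9 libraries (horizontal). The leading transcripts form bands across the libraries, and MSTRG.2792.39 is low in Treated 2 and Treated 3.

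The most abundant locus, MSTRG.124, had a mean of 2726 FPKM and 2 transcripts in the table. MSTRG.124.4, of 410 bases, had 19177, 23188 and 12502 counts in Normal, 16383, 14360 and 20308 in Model, and 19317, 7535 and 5833 in Treated. MSTRG.124.2, of 1732 bases, was high in 3 libraries, 1 of each group, with 7471 counts in Normal 1, 4956 in Model 1 and 3695 in Treated 2. In the other 6 libraries it had 21 to 123 counts. Even the total varied by 33.7% within groups. It was 18078 ± 5984 CPM in Normal, 14947 ± 5159 in Model and 11978 ± 4021 in Treated.

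MSTRG.9882 and MSTRG.2396 were also among the 4 most abundant loci, and each had 1 library that broke the pattern. MSTRG.9882.36, of 772 bases, held 71.7% ± 2.11 of the locus in Normal, 60.2% ± 30.9 in Model and 76.9% ± 4.17 in Treated. In Model 1 it had 1616 counts against 3319 for MSTRG.9882.31, of 800 bases, which had 80 to 274 counts in the other 8 libraries. For this locus 54 transcript numbers were not in the lncRNA table, the most of any. In MSTRG.2396 the transcripts 6 and 13, of 8377 and 10090 bases, shared the lead in 8 libraries, with 1028 to 3323 and 980 to 2772 counts. In Treated 2 they had 12 and 462 counts, and MSTRG.2396.12, of 9990 bases, had 1212 there and 0 in each of the others. The smallest transcript of that locus, MSTRG.2396.5, kept 2.36% ± 0.690 in Normal, 1.84% ± 0.211 in Model and 2.49% ± 0.951 in Treated.

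Other abundant loci were closer to even totals with moving shares. MSTRG.18209 held 808.5 ± 60.03 CPM in Normal, 719.7 ± 95.2 in Model and 848.6 ± 38.7 in Treated. Its shorter transcript 2 had 115, 261, 179 and 243 counts in 4 libraries and 0 or 1 in the other 5. MSTRG.16022 held 777.5 ± 77.3, 676.1 ± 119 and 842.1 ± 30.2 CPM, and its transcript 1 took 66.1% ± 35.0, 73.3% ± 22.8 and 88.9% ± 10.0. MSTRG.12060.11 was steadier, with 65.3% ± 0.685, 58.5% ± 1.32 and 60.1% ± 7.02. The second transcript of MSTRG.12060, MSTRG.12060.9, held 30.6% ± 6.62, 23.7% ± 3.41 and 31.8% ± 2.35. The shortest, MSTRG.12060.2, had 89, 165 and 106 counts in Model but 0, 73 and 0 in Normal and 158, 25 and 0 in Treated. MSTRG.9838.13 held 77.7% ± 1.68 in Model and 71.1% ± 3.85 in Treated. In Normal it held 39.7% ± 33.1, with 493 counts in Normal 1 but 37 and 91 in the others. MSTRG.21478, with 6 transcripts, had 4 leaders but an even total of 379.9 ± 14.8, 347.1 ± 65.9 and 382.3 ± 17.0 CPM. MSTRG.6306, with 7 transcripts and 5 leaders, was uneven in both respects, with a total of 127, 43 and 252 counts in Normal.

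Changes between groups were tested with edgeR's quasi-likelihood method on all transcripts or loci of the lncRNA table that passed a filter on low counts, and p-values were adjusted over that whole table (Benjamini-Hochberg). Share p-values were adjusted over the loci or transcripts whose shares could be tested, all of which belong to the loci studied here, so their calls have no background outside them. An adjusted p below 0.05 is a call. Of the 499 transcripts 370 passed the filter and 129 did not, and of the 186 totals 183 passed. Shares could be tested in the 118 loci with 2 or more transcripts past the filter (307 transcripts), while 63 loci kept 1 transcript and 5 kept none. The 3 comparisons share libraries and are not independent.

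Between Model and Normal 1 of the 370 transcripts passed and 0 totals. Of all transcripts tested 0.0578% were called, and of all totals 0.0472%. Of the shares 0 were called by edgeR (0% of 118 loci and 0% of 307 single transcripts). At an unadjusted p under 0.05 there were 19 transcripts (5.14%, against 3.83% of the whole table), 6 totals (3.28%, against 3.80%) and 12 loci by share (10.2%). DESeq2 called 4 transcripts (0.14% of the whole table) and 0 totals (0.0712%), and limma's diffSplice called the shares of 1 of 118 loci (0.847%). Fitted fold changes were wide but rarely beyond the spread. The absolute log2 fold change had a median of 0.34 over the 370 transcripts, against 0.19 over the table, and 75 transcripts (20.3%, against 4.01% of the table) lay beyond 2-fold. The totals had a median of 0.14 against 0.18, and 0 of 183 lay beyond 2-fold.

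The transcript called was MSTRG.7363.2, of 2335 bases. It had 0, 0 and 0 counts in Normal, 41, 35 and 54 in Model, and 43, 18 and 13 in Treated. Every Model and Treated library was above every Normal library. It was higher in Model than in Normal (adjusted p 0.00187, edgeR quasi-likelihood test) and higher in Treated than in Normal (adjusted p 0.00295, same test). The pooled level was 38.2 times a floor of 3 counts over the Normal group in Model and 28.0 times that floor in Treated. These ratios leave out the error of the higher level. Among the 2302 counts of the locus pooled over Normal, 0 counts allow a share of up to 0.130% by counting error alone. The share was 7.88% ± 2.95 in Model and 6.79% ± 1.88 in Treated. The share test of this transcript alone did not pass in either comparison (adjusted p 0.205 and 0.140, edgeR), nor did that of the locus (0.309 and 0.218).

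The most abundant transcript of the locus was lower in Treated than in Normal. MSTRG.7363.5, the main transcript, of 2259 bases, stood at 502.9 ± 47.4 CPM in Normal, 279.4 ± 43.2 in Model and 220.8 ± 5.94 in Treated, and the Model and Treated libraries all lay below the Normal ones. In Treated against Normal it fell by 1.19 ± 0.13 (SE) on the log2 scale (adjusted p 0.00263, edgeR quasi-likelihood test). In Model against Normal the log2 fold change of -0.85 ± 0.12 did not pass (adjusted p 0.0532). MSTRG.7363.1 had 0, 136 and 124 counts in Normal, 0, 202 and 156 in Model, and 0, 1 and 61 in Treated, and MSTRG.7363.6 had 170 counts in Treated 1 and at most 4 elsewhere. The total of the locus had 707, 759 and 836 counts in Normal, 392, 750 and 635 in Model, and 582, 217 and 278 in Treated, which is 671.4 ± 77.6, 448.2 ± 72.4 and 348.4 ± 39.7 CPM. It fell by 0.95 ± 0.14 on the log2 scale in Treated against Normal (adjusted p 0.0116, edgeR), the 1 total among the 183 called in any of the 3 comparisons. That call was lost without robust settings (adjusted p 0.0773), without Normal 3 (0.0750), without Treated 2 (0.0710) and without Treated 3 (0.0550), with edgeR each time. In Model against Normal the total gave -0.59 ± 0.14 (adjusted p 0.800).

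The 3 loci with the smallest p for shares in Model against Normal did not pass (adjusted p 0.141, 0.165 and 0.165, edgeR). In MSTRG.16638, transcript 1 had 27, 31 and 72 counts in Normal, 0, 0 and 0 in Model, and 56, 0 and 0 in Treated, and transcript 2 had 95, 54 and 37, then 109, 122 and 148, then 93, 76 and 65. The Model and Normal libraries did not overlap in share, and 0 of 379 pooled counts allow up to 0.792% in Model by counting error alone. With the groups Model and Normal fitted alone the adjusted p was 0.0109, and without Treated 1 it was 0.00642. In MSTRG.1738 the transcripts measure 9213 and 9034 bases. Transcript 2 had 219, 0 and 388 counts in Normal, 0, 0 and 0 in Model, and 242, 0 and 174 in Treated. The Normal libraries themselves thus held both states. Without Normal 2 the adjusted p was 0.0237. The locus MSTRG.30822 is described with the next comparison, and its adjusted p for Model against Normal was 0.000920 without Normal 2. Among totals, MSTRG.22877 gave -0.65 ± 0.16 on the log2 scale (128.8 ± 4.41 CPM in Normal, 82.8 ± 12.9 in Model, adjusted p 0.888) and MSTRG.21908 gave 0.51 ± 0.16 (adjusted p 1.00).

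Between Treated and Model 1 of 370 transcripts passed (0.127% of the whole table), 0 of 183 totals (0.13% of the whole table) and the shares of 2 of 118 loci (1.69%). In the share test of single transcripts, 2 of 307 passed (0.651%). At an unadjusted p under 0.05 there were 17 transcripts (4.59%, against 6.54% of the whole table), 15 totals (8.197%, against 6.70%) and 14 loci by share (11.9%). DESeq2 called 7 transcripts (0.444% of the whole table) and 0 totals (0.35%), and limma's diffSplice the shares of 1 locus (0.847%). Beyond 2-fold lay 69 transcripts (18.6%, against 4.58% of the table) and 3 totals (1.64%, against 3.92%).

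MSTRG.1865 had the smallest adjusted p. MSTRG.1865.2, of 1103 bases, had 29, 27 and 15 counts in Normal, 33, 37 and 34 in Model, and 0, 0 and 0 in Treated. MSTRG.1865.1, of 1269 bases, had 84, 81 and 82, then 63, 105 and 149, then 117, 61 and 50. The short transcript was thus present in all 6 libraries of Normal and Model and listed at 0 in all 3 Treated libraries, Treated 1 among them, whose locus count of 117 was above those of Normal. It was lower in Treated than in Model (adjusted p 0.00284) and than in Normal (adjusted p 0.00365, edgeR quasi-likelihood test both times). The pooled level of MSTRG.1865.2 was 26.9 times a floor of 3 counts over the Treated group in Model and 20.8 times that floor in Normal. The error of the higher level is again left out. Its share was 22.04% ± 5.71 in Normal and 26.3% ± 7.90 in Model. In Treated, 0 of 228 pooled counts allow up to 1.32% by counting error alone. The share of the locus passed in Treated against Model (adjusted p 6.37e-05) and in Treated against Normal (0.000108, edgeR), and with each of the 9 libraries left out in turn (at most 0.00402 and 0.00619). With limma's diffSplice it did not pass (adjusted p 0.120 and 0.155). The total did not pass, at 92.5 ± 4.71 CPM in Normal, 106.9 ± 22.3 in Model and 75.5 ± 9.70 in Treated (adjusted p 0.614 for Treated against Model, edgeR).

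The second locus, MSTRG.30822, was of low abundance, with 21 to 52 counts per library. MSTRG.30822.2, of 1479 bases, had 0, 20 and 1 counts in Normal, 25, 49 and 40 in Model, and 0, 0 and 0 in Treated. MSTRG.30822.1, of 1716 bases, had 36, 17 and 36, then 7, 3 and 8, then 39, 29 and 21. Transcript 2 held 85.2% ± 8.22 of the locus in Model and 18.9% ± 30.5 in Normal, and every Model library lay above every other library. The total was level at 32.0 ± 1.55, 33.6 ± 2.88 and 31.1 ± 8.21 CPM. The share passed in Treated against Model (adjusted p 0.0129, edgeR). It was lost without Model 2 (0.0655), Model 3 (0.102), Treated 1 (0.0822), Treated 2 (0.0671) or Treated 3 (0.0538), and with Simes' combination of the transcripts' p-values (0.136), all from edgeR. With limma's diffSplice the share of MSTRG.30822 passed in this comparison. MSTRG.2792.31 was the other single transcript called, with a natural-log difference relative to its locus of 3.51 ± 0.94 (adjusted p 0.0418, edgeR). Its counts were 1, 65 and 0 in Normal, 0, 6 and 4 in Model, and 95, 109 and 1 in Treated. The groups overlapped, and the call was lost without any 1 of 8 libraries, all but Normal 2.

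Among totals in Treated against Model, MSTRG.25983 had the smallest p. It stood at 368.7 ± 9.53 CPM in Normal, 363.9 ± 44.9 in Model and 490.8 ± 25.4 in Treated. Every Treated library was above every other library, but the log2 fold change of 0.43 ± 0.11 did not pass (adjusted p 0.340, and 0.311 for Treated against Normal, edgeR). Its transcripts of 5498 and 5513 bases differed little in length, and the longer one, MSTRG.25983.7, had 189 counts in Normal 3, 225 in Treated 3 and 0 in the other 7 libraries.

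Between Treated and Normal 3 of 370 transcripts passed, 1 higher and 2 lower (0.185% of the whole table), 1 of 183 totals (0.177% of the whole table) and the shares of 3 of 118 loci (2.54%). In the share test of single transcripts, 1 of 307 passed (0.326%), MSTRG.1865.2. At an unadjusted p under 0.05 there were 28 transcripts (7.57%, against 6.98% of the whole table), 16 totals (8.74%, against 7.11%) and 23 loci by share (19.5%). At this unadjusted threshold the percentages of transcripts and totals lay near those of the table. The 3 called transcripts were 0.811% of the 370 and the 1 called total 0.546% of the 183, against 0.185% and 0.177% of the whole table. DESeq2 called 9 transcripts (0.458% of the whole table) and 1 total (0.731%), and limma's diffSplice called the shares of 0 loci (0%). Beyond 2-fold lay 83 transcripts (22.4%, against 4.93% of the table) and 3 totals (1.64%, against 4.11%). The transcripts were MSTRG.7363.2, MSTRG.7363.5 and MSTRG.1865.2, and the total was that of MSTRG.7363, all given above.

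Besides MSTRG.1865, the shares of MSTRG.17126 and MSTRG.21908 passed (adjusted p 0.0414 each, edgeR). MSTRG.17126.2, of 1762 bases, had 47, 39 and 29 counts in Normal, 0, 38 and 3 in Model, and 0, 0 and 0 in Treated. MSTRG.17126.1, of 4112 bases, had 72, 88 and 89, then 102, 91 and 148, then 144, 76 and 72. The shorter transcript held 31.6% ± 7.50 in Normal, and 0 of 292 pooled counts in Treated allow up to 1.03% by counting error alone. Model was mixed, with 1 library at 0 and 1 at the level of Normal. The total was level, at 106.0 ± 5.98, 98.1 ± 10.4 and 98.0 ± 7.08 CPM. MSTRG.21908.1, of 1514 bases, had 30, 60 and 27 counts in Normal, 123, 108 and 111 in Model, and 127, 56 and 66 in Treated. MSTRG.21908.2, of 1342 bases, had 70, 21 and 65, then 19, 35 and 39, then 34, 3 and 3. The share of the longer transcript was 44.5% ± 25.6, 78.7% ± 6.89 and 89.8% ± 9.48.

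Neither of these calls was stable. MSTRG.17126 was lost without Normal 1, 2 or 3, Model 3 or Treated 1, 2 or 3 (adjusted p 0.0695 to 0.176, edgeR), and MSTRG.21908 without Normal 1 or 3, Model 1, 2 or 3, or Treated 2 or 3 (0.0574 to 0.176). Both were lost without the filter on low counts (0.0975) and with limma's diffSplice (0.155).

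**Figure D5:**
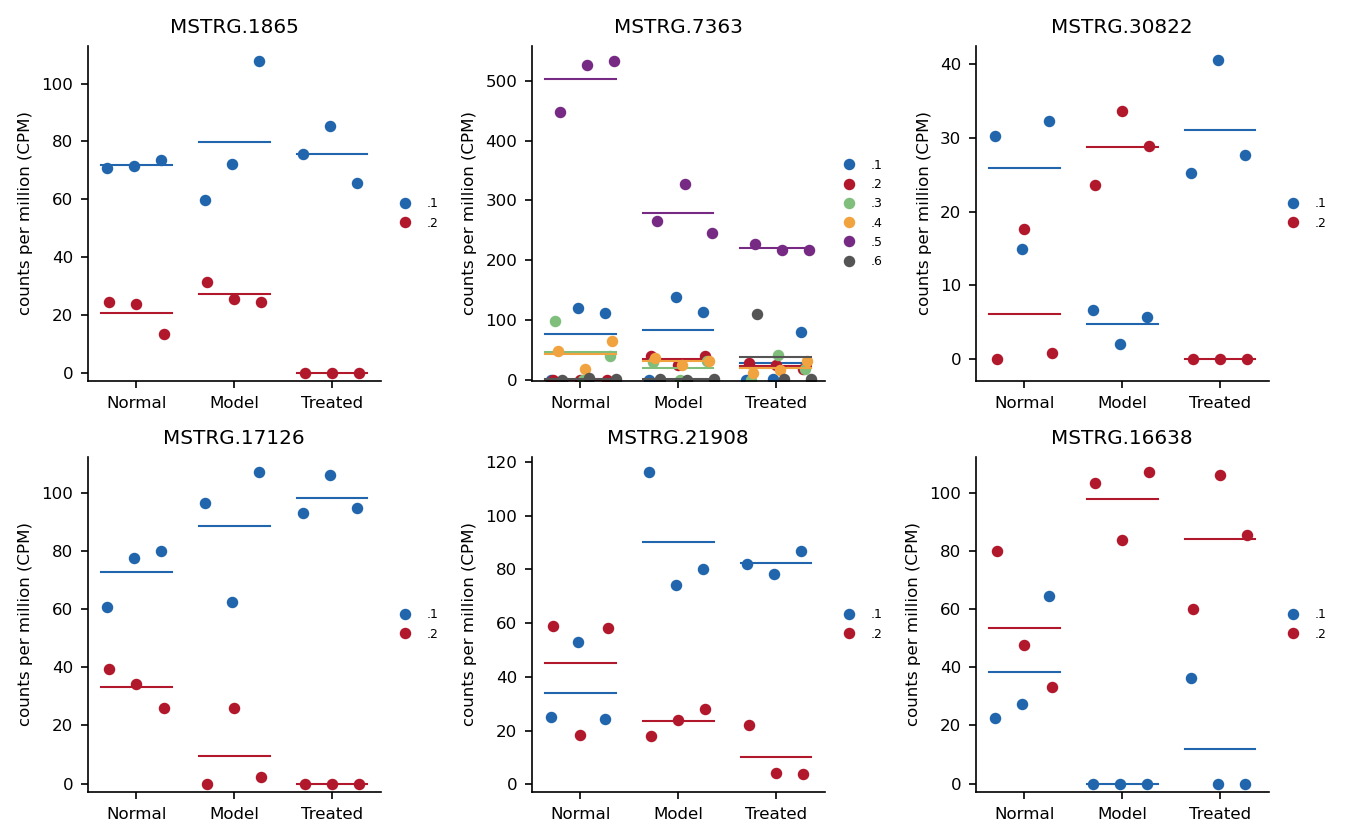
Level of each transcript in CPM (vertical), 1 point per library and a line at each group mean, for 5 loci with a call and for MSTRG.16638; a colour stands for 1 transcript, named by its last number. MSTRG.1865.2 and MSTRG.17126.2 are at 0 in the 3 Treated libraries, MSTRG.30822.2 is above 20 CPM in Model alone, and MSTRG.7363.5 is above 400 CPM in Normal alone.

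A larger exchange of shares, in which libraries of 1 group disagreed, was not called. MSTRG.27170.1, of 859 bases, had 374, 31 and 382 counts in Normal, 344, 0 and 491 in Model, and 0, 0 and 0 in Treated. MSTRG.27170.2, of 1350 bases, had 3, 265 and 7, then 6, 508 and 67, then 465, 212 and 274. Transcript 2 thus held all reads in Treated, but also all reads in Model 2. By counting error alone, 0 of 951 pooled counts in Treated allow a share of up to 0.315% for transcript 1. The share did not pass in Treated against Normal or against Model (adjusted p 0.158 and 0.162, edgeR). The total was 309.1 ± 44.4, 361.1 ± 37.8 and 319.1 ± 35.9 CPM. MSTRG.13701 had the third smallest p for a total in Treated against Normal, at 100.3 ± 14.1 against 69.0 ± 4.24 CPM, and did not pass (adjusted p 0.497). Its transcripts were both present in every library, with MSTRG.13701.1 at 71.4% ± 5.68, 80.1% ± 0.496 and 68.1% ± 13.6.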

How the data were processed

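Each row of the lncRNA table holds, per the file headers, a count and an FPKM value for each of the 9 libraries. The deposited counts were whole numbers, and the deposited FPKM values were used only for lengths and per-length shares. Per the submitters' processing notes, CASAVA 1.8 was used and the genome build was mRatBN7.2. No assembler, aligner or counter is given in the sources used here. Libraries were grouped by title, and columns were matched to libraries through their descriptions. The members and the lists were chosen with earlier results of these data known.

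Locus totals and shares were sums and ratios of counts. Transcripts with low counts were left out (edgeR's filterByExpr, minimum count 10). Transcripts, and separately locus totals, were tested in 1 fit over all 9 libraries with edgeR 4.0.16 (R 4.3.3; TMM factors, robust quasi-likelihood), and shares with edgeR's diffSpliceDGE. SE is the absolute log fold change over the square root of F. Both are on the log2 scale, except share differences of single transcripts, which are natural logs. Scripts were tested on simulated data. DESeq2 1.42.0 and limma 3.58.1 were among the alternatives. Percentages called by DESeq2 are of the features to which it gave an adjusted p.

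Loci were named by rule: those with a call, the 3 smallest p-values per test and comparison, the 8 most abundant, the 5 with most transcripts, 5 abundant loci whose leader differed between groups, and the 5 with the largest and the 5 with the smallest spread of the main share. Lengths from the count to FPKM ratio were whole bases within 0.0394 for all 499 transcripts. Replicates of a group differed beyond counting noise (chi-square over degrees of freedom 8.41 to 12.6), so none was counted as a duplicate.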

Additional observations from a re-analysis of the deposited data

How the results depend on the processing

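Alternatives for between-group counts were upper-quartile factors, no filter, a minimum count of 30, no robust settings, the 2 groups alone, a replicate block, DESeq2, limma, Simes' combination and leaving out each library. Counts of called transcripts (1, 1 and 3 for Model against Normal, Treated against Model and Treated against Normal) became 2 for Model against Normal with upper-quartile factors, 4, 7 and 9 with DESeq2, 0 for Treated against Model with a minimum count of 30, and 4 and 5 for the Treated comparisons with 2 groups alone. Leaving out 1 library gave 1 to 3, 1 to 3 and 3 to 5. The 1 called total became 0 without robust settings, and leaving out 1 library gave 0 to 0, 0 to 1 and 0 to 2. Called shares (0, 2 and 3 loci) became 1, 2 and 2 with 2 groups alone, 1, 1 and 0 with limma, 0, 1 and 1 with Simes, 0 for Treated against Model with a minimum count of 30 and 1 for Treated against Normal without a filter. Leaving out 1 library gave 0 to 5, 1 to 5 and 1 to 6 loci. The cause of these shifts was not tested. The calls of MSTRG.7363.2, MSTRG.7363.5 and MSTRG.1865.2 as transcripts passed in every alternative that tested them, and a minimum count of 30 left MSTRG.1865.2 untested. No result changed direction. Libraries with the same replicate number showed little correlation in their deviations from the group means over the tested transcripts (-0.079 to 0.013). This cannot settle whether the numbers mark a shared culture or day, which the labels do not state. With the replicate block 2, 2 and 3 transcripts, 1 total and the shares of 1, 2 and 1 loci were called, MSTRG.1738 passed in Model against Normal (adjusted p 0.00110) and in Treated against Model (0.000904), and MSTRG.30822 (0.0506), MSTRG.17126 (0.0951), MSTRG.21908 (0.0878) and MSTRG.2792.31 were lost. Chosen after seeing the data, an on-threshold of 10 counts gave 199 of 485 switching transcripts and one of 50 gave 105 of 323, a leader by FPKM gave 152 loci with several leaders in place of 116, and a minimum mean total of 200 counts gave CV medians of 13.3% and 26.7%. At these depths a transcript at 0 may lie below 1.94 to 4.19 CPM in a single library.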
